A study of Mus musculus with 2 samples.

Results

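The matrix metalloproteases (Mmp genes), their tissue inhibitors (Timp genes), and the related ADAM and ADAMTS proteases (Adam and Adamts genes) were examined in 2 clones of mouse epiblast stem cells (EpiSC). Members were taken by the gene name printed on the array, with no use of measured values, and every probe was kept. This gave 78 genes, read by 105 of the 39429 probes and 123 of the 43020 spots that were not controls: 23 Mmp, 4 Timp, 32 Adam and 19 Adamts genes. EpiSC are pluripotent cells that correspond to the epiblast after implantation. Clone 2 and clone 1 were both wildtype, female, of C57BL/6 background and at passage 9, and neither had been given a treatment other than trypsin for collection. Each clone was hybridised to 1 array of 1 colour, both on the same slide and scan, so a difference between the clones has no replicate check and no test or p-value was computed. The labels do not say how the clones were derived, or whether feeder cells were used. All 10 EpiSC markers examined were detected on both arrays, among them Pou5f1 (2.49 in clone 2 and 2.85 in clone 1) and Fgf5 (2.13 and 2.32).

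Mmp, ADAM and ADAMTS enzymes are zinc proteases of the metzincin group. Mmp enzymes cut collagens, laminins and other matrix proteins, are made as inactive precursors, and are held in check by Timp proteins. ADAM proteins sit in the membrane and release the outer parts of growth factors, Notch receptors and cadherins, and many other ADAMs act in sperm. ADAMTS enzymes are secreted and cut proteoglycans, procollagens and von Willebrand factor. In the embryo around implantation such enzymes are known for remodelling basement membranes.

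Signals are given on the log2 scale with the array's 75th percentile set to 0, so 0 is the signal that 1 in 4 probes exceeded. A gene counted as detected when at least 50% of the spots of a probe were well above background by the scanner software's flag. Where a gene had several probes, its value is that of the probe with the highest mean signal. Signals of different probes are not compared as RNA levels, because probes bind with different strength. In these bulk cultures, fewer cells of a type and less RNA per cell cannot be told apart.

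In all, 42 of the 78 genes (53.8%) were detected on both arrays, against 61.1% of all 22896 named genes. Adam26a and Adamts17 passed in clone 2 alone (2 genes, against 2.58% of all genes), Mmp1b and Mmp24 in clone 1 alone (2 genes, against 2.31%), and the other 32 on neither array. The shares differed between the families: 4 of 4 Timp, 15 of 23 Mmp, 9 of 19 Adamts and 14 of 32 Adam genes were detected on both arrays. Within the ADAMs, 8 of 9 somatic proteases were detected on both arrays and 3 of 20 genes of the male germ line. With the less strict flag for a positive and significant signal, 63 of the 78 genes (80.8%) were detected on both arrays, against 79.8% of all genes.

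**Figure D1:**
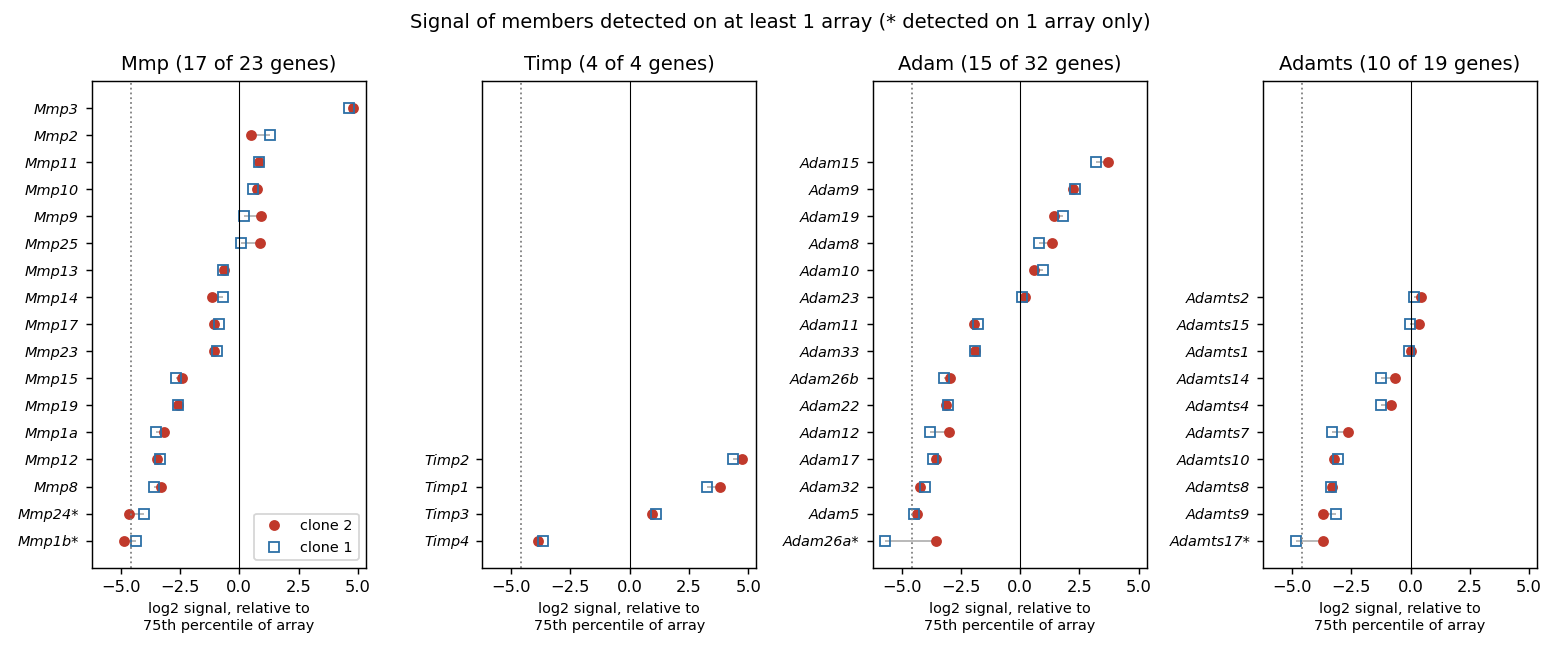
Log2 signal of the 46 members detected on at least 1 array, in clone 2 (filled circles) and clone 1 (open squares), with 1 array each. The dotted line is the lowest signal of a detected probe and the solid line the 75th percentile of the array. In each of the 42 genes detected on both arrays the symbols lie less than 1 log2 unit apart.

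Of the Mmp genes, 10 lie side by side on chromosome 9, with probes between positions 7282762 (Mmp13) and 7697700 (Mmp7) in mm9. The cluster held both bright and undetected genes. Mmp3, a stromelysin that cuts many matrix proteins and activates other Mmp precursors, read 4.82 in clone 2 and 4.63 in clone 1. Mmp10, its close relative, had 0.73 in clone 2 and 0.57 in clone 1. The collagenase Mmp13 had -0.66 in clone 2 and -0.67 in clone 1. For these 3 genes the clones differed by at most 0.19 log2. The signals of Mmp10 and Mmp3 lay above the 75th percentile of both arrays, and that of Mmp13 below it.

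Other genes of the cluster lay closer to background. Mmp8, the collagenase of neutrophils, had -3.31 in clone 2 and -3.58 in clone 1. Mmp12, the elastase of macrophages, had -3.45 in clone 2 and -3.32 in clone 1 by 1 probe and was not well above background by its other probe. Mmp1a, a mouse counterpart of human interstitial collagenase, had -3.16 in clone 2 and -3.53 in clone 1. These 3 genes were detected on both arrays, at signals not far above the lowest of any detected probe (-4.57 in clone 2 and -4.56 in clone 1). Mmp1b, the sister gene of Mmp1a, was not well above background in clone 2 (-4.87) and was detected in clone 1 (-4.35). Its signal in clone 1 was 1.17-fold the lowest detected signal of clone 2. This is not a strict bound, because probes with higher signals were not detected. Examples are the second Adam17 probe in clone 2 (-4.41) and Adam1a in clone 1 (-4.34). Mmp7 (matrilysin), Mmp20 (the enamel protease) and Mmp27 were detected in neither clone.

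The sequence upstream of these genes is shown because neighbours in the cluster differed in detection. RefSeq promoter windows of assembly GRCm38.p6 run from 250 bases before to 50 bases after a gene's start, and 48 of the 78 members had at least 1 window. The words TGACTCA and TGAGTCA, which are each other's reverse complement and together form the classic binding site of AP-1 (Fos and Jun factors), were searched in each window. Either word occurred in 1709 of all 32851 windows (5.2%) and for 1607 of the 27025 genes with a window (5.95%). It occurred for 7 of the 10 cluster genes and for 3 of the 38 members outside the cluster with a window (7.89%). The letters TATAAA, read along the transcribed direction, occurred in 8.32% of all windows and for 8 of the 10 cluster genes, and for 3 of the 38 others. Both words together were found for 7 cluster genes and in 0.624% of all windows. The shares for TATAAA and for both words count windows, while members are counted as genes, some with more than 1 window. The upstream 250 bases of 5 of the 7 genes follow, 5′ to 3′ on the plus strand, with the AP-1 word in capitals.
Mmp13 (chr9:7272264-7272513): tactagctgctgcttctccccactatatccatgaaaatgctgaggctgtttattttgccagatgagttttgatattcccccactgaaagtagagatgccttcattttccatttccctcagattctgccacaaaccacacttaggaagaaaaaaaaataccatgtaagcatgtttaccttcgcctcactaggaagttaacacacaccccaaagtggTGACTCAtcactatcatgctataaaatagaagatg
Mmp3 (chr9:7445572-7445821): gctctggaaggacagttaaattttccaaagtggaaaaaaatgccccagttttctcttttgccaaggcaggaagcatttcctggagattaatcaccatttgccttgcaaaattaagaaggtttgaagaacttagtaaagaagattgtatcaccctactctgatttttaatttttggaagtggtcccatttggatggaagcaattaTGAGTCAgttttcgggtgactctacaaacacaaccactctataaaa
Mmp1a (chr9:7463891-7464140): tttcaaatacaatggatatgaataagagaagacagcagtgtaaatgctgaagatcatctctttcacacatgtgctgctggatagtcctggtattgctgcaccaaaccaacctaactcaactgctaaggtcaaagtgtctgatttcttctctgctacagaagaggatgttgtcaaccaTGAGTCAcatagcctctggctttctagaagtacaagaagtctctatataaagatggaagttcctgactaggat
Mmp10 (chr9:7502092-7502341): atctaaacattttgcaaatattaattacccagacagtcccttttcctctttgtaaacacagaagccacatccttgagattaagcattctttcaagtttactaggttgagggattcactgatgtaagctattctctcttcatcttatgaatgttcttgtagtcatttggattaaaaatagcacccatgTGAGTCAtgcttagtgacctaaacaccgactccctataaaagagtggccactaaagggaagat
Mmp7 (chr9:7691840-7692089): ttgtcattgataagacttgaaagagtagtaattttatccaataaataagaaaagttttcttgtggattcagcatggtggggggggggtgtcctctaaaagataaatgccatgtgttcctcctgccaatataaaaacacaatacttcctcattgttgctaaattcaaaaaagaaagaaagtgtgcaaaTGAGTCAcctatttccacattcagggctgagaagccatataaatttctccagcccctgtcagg

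In these sequences the AP-1 word began 35 bases before the start of Mmp13, 46 before Mmp3, 73 before Mmp1a, and 63 before both Mmp10 and Mmp7. For Mmp12 and Mmp7 the word was found in 1 of 2 windows. It was present for 5 of the 6 cluster genes detected on both arrays, the exception being Mmp8, and for 2 of the other 4, Mmp1b and Mmp7. Among all members with a window, it was present for 6 of 27 detected on both arrays (22.2%) and for 4 of 21 others (19.0%). A match says that these letters are present and not that a factor was bound.

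**Figure D2:**
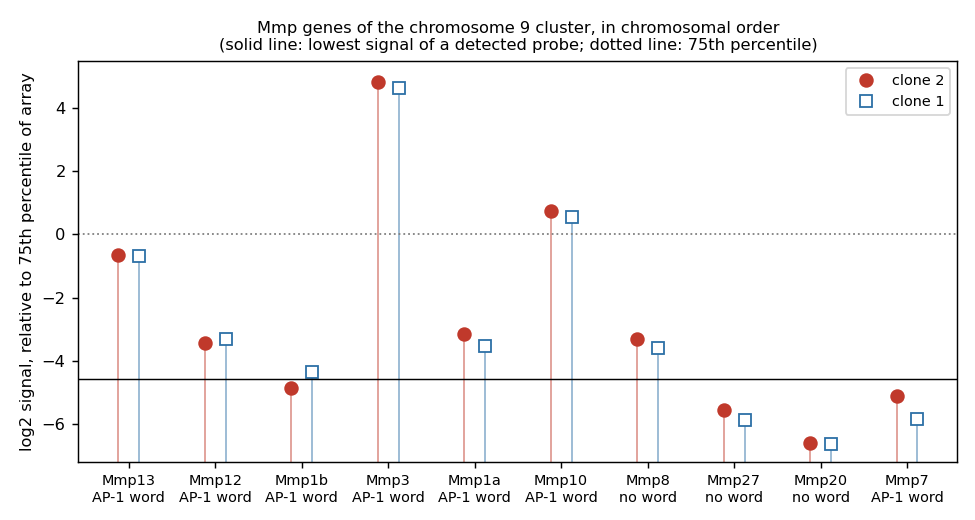
Log2 signal of the 10 Mmp genes of the chromosome 9 cluster in chromosomal order, in clone 2 (filled circles) and clone 1 (open squares), with the presence of an AP-1 word in a promoter window below each name. Mmp3 and Mmp10 lie above the 75th percentile in both clones, and Mmp27, Mmp20 and Mmp7 lie below the lowest signal of a detected probe.

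The gelatinases Mmp2 and Mmp9, which cut denatured and basement membrane collagen, were detected in both clones and differed in opposite directions. Mmp9 was read by a probe printed 10 times on each array, on chromosome 2 from 164780620 to 164780679 in mm9 (plus strand), and no other detected member had so many spots. The first 30 of its 60 bases are shown for that reason.
Mmp9 probe: ccaaccttttccagctactttagtcaatca
The processed signal of the 10 spots had a lowest value of 1331, a median of 1407 and a highest of 1464 in clone 2. In clone 1 the lowest, median and highest were 916, 957 and 1008. The spots of the clones did not overlap, before or after scaling. A difference well beyond the spread between spots is common here: 25.3% of all measured genes differed by more than 3 SDs of it. On the log2 scale Mmp9 averaged 0.93 ± 0.05 in clone 2 and 0.21 ± 0.05 in clone 1 (SD over 10 spots of 1 array each), which is 1.65-fold higher in clone 2. Spots at the same place on both arrays differed by 0.63 to 0.79. This spread covers the spots of 1 labelled sample and not that between cultures. Mmp2, read by 1 spot, had 0.51 in clone 2 and 1.31 in clone 1 and was 1.74-fold higher in clone 1. Its spot lay beside a spot that was 2-fold apart between the arrays.

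**Figure D3:**
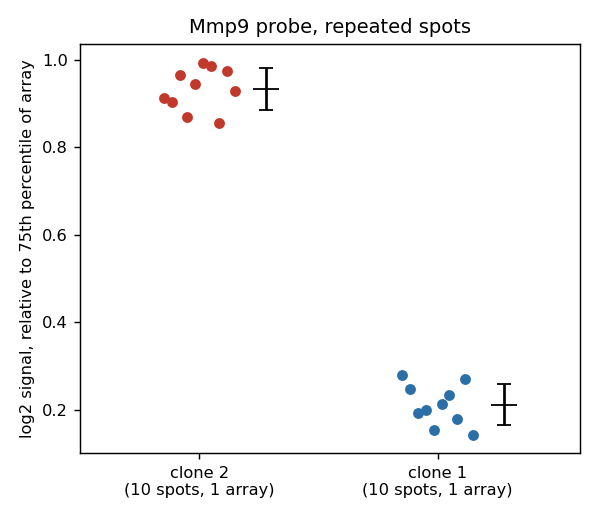
Log2 signal of the 10 spots of the Mmp9 probe on the array of clone 2 (left) and of clone 1 (right); the bars are mean ± SD over spots of 1 array. The 10 spots of clone 2 lie between 0.86 and 0.99 and those of clone 1 between 0.14 and 0.28.

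Of the 6 membrane-type Mmp genes, 4 were detected on both arrays. Mmp14, the main activator of Mmp2 at the cell surface, had -1.14 in clone 2 and -0.67 in clone 1, a difference of -0.47 beside a spot that was 2-fold apart. Mmp25, which is anchored by a lipid and known from leukocytes, had 0.86 in clone 2 and 0.06 in clone 1 and was 1.74-fold higher in clone 2. Mmp17, also lipid-anchored, had -1.07 in clone 2 and -0.86 in clone 1, and Mmp15, which spans the membrane, had -2.42 and -2.68. Mmp24 was below detection in clone 2 (-4.64) and passed in clone 1, at 1.48-fold the lowest detected signal of clone 2. Its other probe was detected on neither array (-4.89 in clone 2 and -5.03 in clone 1). Mmp16 was detected in neither. Mmp24 and Mmp16 are both known from the nervous system.

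The remaining Mmp genes were mostly dim. Mmp11, a stromelysin that is activated inside the cell by furin, had 0.85 in clone 2 and 0.84 in clone 1. The dimmer of its probes gave a difference of -0.05. Mmp23, a short form that lacks the usual activation switch, had -1.07 in clone 2 and -0.92 in clone 1. Mmp19 had -2.60 in clone 2 and -2.58 in clone 1. Mmp21, known for its part in setting the left-right axis, was detected in neither clone by either of its probes.

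Mmp28 (epilysin) was detected in neither clone by the probe with values on both arrays (-5.43 in clone 2 and -5.90 in clone 1). Its other probe had a value in clone 2 (-5.32, not well above background), while its spot in clone 1 carried a flag for uneven brightness and was left out. That probe lies on chromosome 11 from 83257262 to 83257321 in mm9 (minus strand), and its first 30 bases are shown because its spots differ so widely between the arrays.
Mmp28 second probe: ccacctggtattgaggctgctgcagtgtct

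All 4 inhibitors were detected on both arrays. Timp1, a secreted inhibitor encoded on the X chromosome, had 3.82 in clone 2 and 3.27 in clone 1 and was 1.46-fold higher in clone 2. Timp2, which inhibits Mmp2 and also helps Mmp14 to activate it, had 4.72 in clone 2 and 4.35 in clone 1 by its brighter probe. Timp3, which binds to the matrix and also inhibits ADAM17 and several ADAMTS enzymes, had 0.93 in clone 2 and 1.10 in clone 1. Timp4 had -3.89 in clone 2 and -3.68 in clone 1. Timp1 and Timp2 were thus higher in clone 2 and Timp3 and Timp4 in clone 1, each by less than 1.5-fold. With normexp background correction Timp4 was instead higher in clone 2 (0.43 log2). The spots of Timp1, Timp2 (brighter probe) and Timp4 lay beside a spot that was 2-fold apart.

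The 2 Timp2 probes did not show the same difference. The brighter probe lies on chromosome 11 from 118163146 to 118163205 in mm9 and gave 0.37 log2. The other spans from 118171964 to 118178741, so it bridges separate stretches of the genome, and gave -0.02 (1.40 in clone 2 and 1.42 in clone 1). The first 30 bases of each 60-base probe, both on the minus strand, show that they read different parts of the transcript.
Timp2 brighter probe: ccgtgagcgttcttgtgccgtgttgatgcc
Timp2 bridging probe: taattgcaggaaaggcagaaggagatggca

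Somatic ADAM proteases were detected on both arrays in 8 of 9 cases, the exception being Adam28. Adam10, which releases Notch and cadherin ectodomains, had 0.61 in clone 2 and 0.96 in clone 1. Adam17, which releases tumour necrosis factor and ligands of the EGF receptor, had -3.57 in clone 2 and -3.66 in clone 1 by its brighter probe. By its second probe Adam17 was detected in clone 1 only, at signals of -4.41 in clone 2 and -4.11 in clone 1. Adam15 had 3.72 in clone 2 and 3.21 in clone 1, Adam9 had 2.22 and 2.33, and Adam19, known from heart development, had 1.42 and 1.79. The Adam15 difference of 0.51 log2 was 0.27 with normexp background correction, and its spot lay beside a spot that was 2-fold apart. Adam8, which is known from leukocytes, had 1.36 in clone 2 and 0.81 in clone 1 and was 1.47-fold higher in clone 2. Adam33 had -1.90 in clone 2 and -1.91 in clone 1. The signals of Adam8, Adam9, Adam10, Adam15 and Adam19 lay above the 75th percentile of both arrays.

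Adam12, known from muscle and fat precursors, had -3.01 in clone 2 and -3.78 in clone 1, a 1.71-fold higher signal in clone 2, on the only probe among its 3 that passed the background flag. Its other probes were not well above background on either array and differed by -0.82 and -0.88, so the mean of all 3 probes was -0.31.

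The 3 somatic ADAMs without protease activity were detected on both arrays. Adam23, an adhesion protein and receptor for Lgi proteins in the brain, had 0.22 in clone 2 and 0.08 in clone 1 by its brighter probe. Its second probe had -3.28 in clone 2 and -4.09 in clone 1, a larger difference (0.82 against 0.14) at a dimmer signal. Adam11 had -1.95 in clone 2 and -1.79 in clone 1. Adam22, another Lgi receptor, had -3.14 in clone 2 and -3.06 in clone 1, by 1 of its 2 probes.

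ADAMs of the male germ line were mostly not detected. Of the 20 genes on the array, 16 were detected in neither clone, among them Adam2 and Adam3, which act in fertilisation. Adam5, Adam26b and Adam32 were detected on both arrays, at signals between -4.48 and -2.96. Adam5 and Adam32 each passed by only 1 of 2 probes, and the spot of that Adam5 probe lay beside a spot that was 2-fold apart. Adam26a was detected in clone 2 only (-3.57 in clone 2 and -5.70 in clone 1), at 1.99-fold the lowest detected signal of clone 1. That probe of Adam26a is annotated with transcripts of Adam26b and Adam34 as well, its spot lay beside a spot that was 2-fold apart, and the other probe of Adam26a lay at background in both clones.

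Among the ADAMTS genes, 5 of the 7 that cut proteoglycans such as versican and aggrecan were detected on both arrays. Adamts1 had 0.03 in clone 2 and -0.08 in clone 1, Adamts15 had 0.36 and -0.04, and Adamts4 had -0.83 and -1.27. Adamts9 had -3.69 in clone 2 and -3.13 in clone 1 and was 1.48-fold higher in clone 1, but 0.23 log2 higher in clone 2 with normexp background correction. Adamts8 had -3.31 in clone 2 and -3.36 in clone 1. Adamts5 and Adamts20 were detected in neither clone.

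Of the enzymes that trim procollagens, Adamts2 had 0.46 in clone 2 and 0.16 in clone 1, and Adamts14 had -0.67 in clone 2 and -1.25 in clone 1, a 1.49-fold difference. Adamts3 was detected in neither clone. Adamts7, which cuts cartilage oligomeric matrix protein, had -2.62 in clone 2 and -3.33 in clone 1 and was 1.63-fold higher in clone 2. Adamts10, known for its part in fibrillin microfibrils, had -3.22 in clone 2 and -3.06 in clone 1. Adamts13, the protease of von Willebrand factor, was detected in neither. Adamts17 was detected in clone 2 only, and by both of its probes: -3.71 in clone 2 and -4.82 in clone 1 by the brighter, and -3.91 and -4.88 by the other. By the brighter probe, Adamts17 in clone 2 was at 1.81-fold the lowest detected signal of clone 1. Adamts19, whose probe was printed 10 times, was at background on every spot, with -6.66 ± 0.13 in clone 2 and -6.68 ± 0.09 in clone 1 (SD over 10 spots of 1 array each).

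Between the clones, 0 of the 42 members measured on both arrays were 2-fold apart. Among all 13972 measured genes, 2.56% were, with 1.52% higher in clone 2 and 1.04% higher in clone 1. With so low a background, a count of 0 among 42 genes is not a result about these families. At 1.5-fold, which 9.1% of all measured genes reached in either direction, 4 members were higher in clone 2 (Mmp25, Adam12, Mmp9 and Adamts7), against 5.8% of all genes, and 1 was higher in clone 1 (Mmp2), against 3.31%. The median difference was 0.10 log2 over the members and 0.05 over all measured genes. It was 0.01 for Mmp genes (-0.06 to 0.22 over the processing settings tried), 0.10 for Timp (-0.10 to 0.31), 0.05 for Adam (-0.08 to 0.35) and 0.29 for Adamts genes (0.10 to 0.36). The medians of Mmp, Timp and Adam genes thus changed sign between settings. That of Adamts genes did not, but settings applied to the same 2 arrays cannot settle a direction. Of the 42 members 26 were higher in clone 2 by any amount, against 57.1% of all genes, and 7 of the 9 measured Adamts genes were.

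The spread between spots puts these sizes in proportion. For probes printed 10 times the median SD of a difference between arrays was 0.10 log2 at signals of -2 or more and 0.17 at dimmer signals. Of the 42 members, 10 differed by less than 1 such SD and 16 by more than 3, of which 11 were higher in clone 2 and 5 in clone 1. Among all measured genes 25.3% differed by more than 3 SDs. Of the 105 member probes, 27 had at least 1 spot beside a spot that was 2-fold apart between the arrays. Besides the genes named for this above, they included probes of Mmp1a, Mmp1b, Mmp8, Mmp10, Adam33, Adamts2 (brighter probe) and Adamts4. The SD describes spots on 1 array and leaves out labelling, culture and clone.

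**Figure D4:**
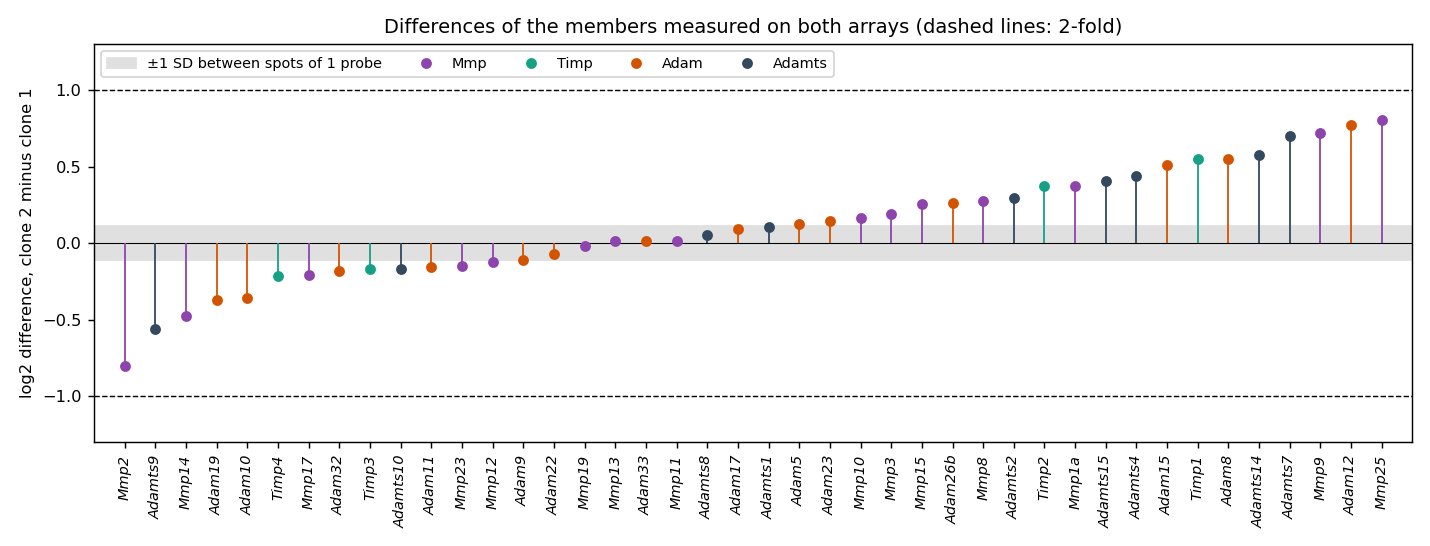
Log2 difference (clone 2 minus clone 1) of the 42 members measured on both arrays, ordered by size and coloured by family. The grey band is ±1 SD between spots of 1 probe (0.11 log2, from probes printed 10 times) and the dashed lines mark 2-fold; all 42 lie inside the dashed lines, from -0.80 (Mmp2) to 0.80 (Mmp25).

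Genes that act on these proteases were examined as well. Of 30 regulators, 19 were detected on both arrays (61.1% of all genes), and 0 of those 19 were 2-fold apart (2.56% of all measured genes). Of the proprotein convertases, which cut the precursors of ADAMs and membrane-type Mmps, Furin had 1.72 in clone 2 and 1.01 in clone 1 (1.64-fold), and Pcsk6 had -1.60 and -2.45 (1.81-fold). Pcsk7 had -2.10 in clone 2 and -1.90 in clone 1. In the plasminogen system, which activates several Mmps, the urokinase receptor Plaur had 1.12 in clone 2 and 0.66 in clone 1. Plg, which encodes plasminogen itself, was detected in neither clone. Rhbdf2, which brings ADAM17 to the cell surface, had 1.55 in clone 2 and 0.79 in clone 1 (1.68-fold), and its relative Rhbdf1 had 2.24 and 1.97. The tetraspanins that carry ADAM10 were detected on both arrays except Tspan10, with Tspan14 at 2.47 in clone 2 and 2.43 in clone 1. The membrane-bound Mmp inhibitor Reck had -2.14 in clone 2 and -2.45 in clone 1, and Bsg (basigin), an inducer of Mmps, had 2.35 and 2.45. Papln, an ADAMTS-like matrix protein, had -5.52 in clone 2 (not well above background) and -3.42 in clone 1, by 1 of its 2 probes. The signal in clone 1 was 2.22-fold the lowest detected signal of clone 2.

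Substrates were widely detected. Of 16 proteins known to be shed by ADAMs, 13 were detected on both arrays (61.1% of all genes), 0 of them 2-fold apart (2.56% of all measured genes). Cdh1 (E-cadherin), cut by ADAM10, had 3.09 in clone 2 and 2.15 in clone 1 (1.93-fold), while Cdh2 (N-cadherin), also cut by ADAM10, had 0.82 in clone 2 and 1.44 in clone 1 and was 1.53-fold higher in clone 1. App had 3.07 in clone 2 and 2.89 in clone 1, and Hbegf, a ligand of the EGF receptor, had 1.59 and 0.95. All 13 matrix substrates with a value were detected on both arrays, with 0 of them 2-fold apart. With 2.56% of all measured genes 2-fold apart, a count of 0 among 13 is not a result about either list. Fn1 (fibronectin) had 6.08 in clone 2 and 5.89 in clone 1, and Lamc1 (a laminin chain) had 4.40 and 4.19. The proteoglycan Hspg2 (perlecan) had 3.58 in clone 2 and 3.14 in clone 1.

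Genes used as markers of fibroblasts, leukocytes and epithelial cells were measured on the same arrays. A signal of such a gene does not by itself show cells of that type, and their presence was not tested. Fn1 and Cdh1 also stand in the substrate lists above. All 14 fibroblast markers with a value were detected on both arrays, against 61.1% of all genes. Of these, 0 were 2-fold apart, against 2.56% of all measured genes, so that count is not a result about them. Fn1 (6.08 in clone 2 and 5.89 in clone 1) and Vim (5.07 and 4.94) were the brightest of the 14. The summed signal of the 14 was 197 in clone 2 and 177 in clone 1 (in multiples of the array's 75th percentile). The same sum over all named genes was also higher in clone 2 (114013 against 99636 in clone 1). Fibroblasts are known to make Mmp2, Mmp3, Mmp13, Timp1, Timp2 and Timp3, and the part of such cells in those signals was not tested. Of 10 leukocyte markers, 7 were detected on both arrays, against 61.1% of all genes. The summed signal of the 10 was 5.13 in clone 2 and 3.68 in clone 1. Ptprc (CD45) was detected in clone 1 only, Cd68 in clone 2 only and Cx3cr1 in neither. The 7 had no common direction, with 4 higher in clone 2 and 3 in clone 1. Cd3e was 5.46-fold higher in clone 2 (0.29 in clone 2 and -2.16 in clone 1). Csf1r was 1.78-fold higher in clone 2 by its brightest probe and differed by 0.09 log2 by its other detected probe. The difference between the summed signals came from Cd3e and the brightest Csf1r probe, so the sums do not measure leukocyte content. Lyz2 differed by -0.24 log2, and Ptprc in clone 1 was at 1.54-fold the lowest detected signal of clone 2. Leukocytes are known to make Mmp25, Mmp9 and Adam8, and the part of such cells in their differences was not tested. Of 10 epithelial markers, 8 exceeded a 2-fold difference, each with clone 2 higher, against 1.52% of all measured genes. The list was drawn up with earlier results of these data known, so this count is not a test. Epcam differed least (0.13 log2). The summed signal of the 10 was 111 in clone 2 and 48.3 in clone 1, with Krt18 the brightest (6.10 and 4.92 on the log2 scale).

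**Figure D5:**
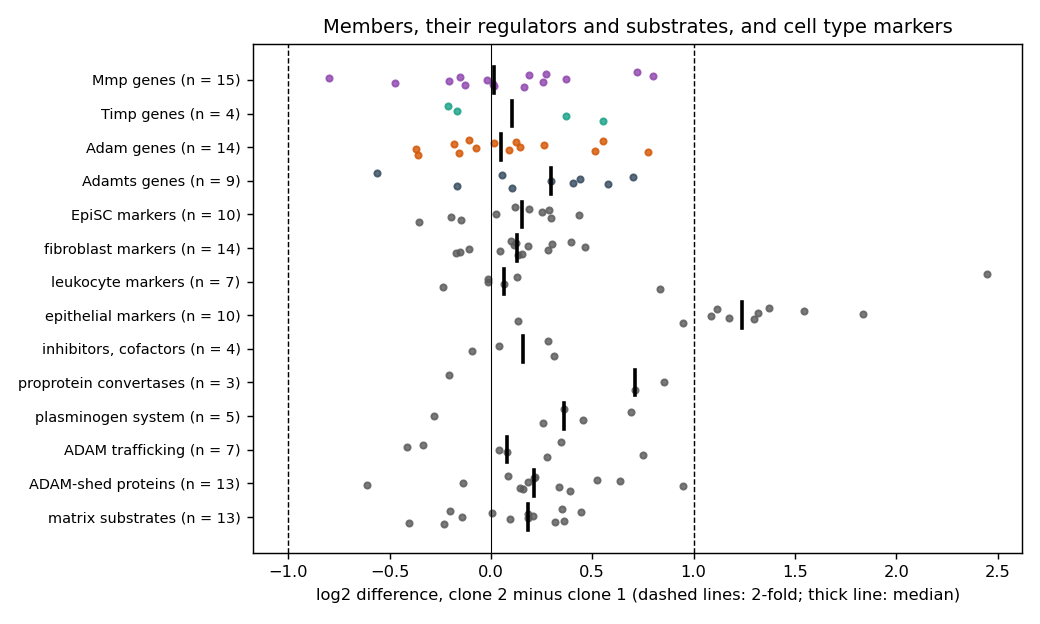
Log2 difference (clone 2 minus clone 1) of each gene measured on both arrays, for the 4 protease and inhibitor families, cell type markers, regulators and substrates; the thick line is the median of a list and the dashed lines mark 2-fold. The epithelial markers, with a median of 1.24, lie to the right of the protease and inhibitor families, whose medians run from 0.01 to 0.29.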

How the data were processed

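RNA of 2 EpiSC clones was profiled on 1 array each. The deposited scanner files hold spot intensities from Feature Extraction 11.0.1.1 (protocol GE1_1100_Jul11, array design 026655), corrected for background and spatial trends and not normalized between arrays, with probe positions on mm9, per the file headers. A table of normalized intensities on a linear scale was also deposited, by a method not given in the sources used here.

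Spots flagged as uneven or as population outliers were left out (246 in clone 2 and 277 in clone 1, 1 of them a member's). Signals were put on the log2 scale and averaged for each probe. The array's 75th percentile (736 in clone 2 and 830 in clone 1, as linear signals) was then subtracted. Negative control spots had medians of 7.13 and 7.96. Differences are clone 2 minus clone 1. For a gene detected on 1 array, the fold is set against the other array, at the higher of the dim value and the lowest detected signal there. This bound is approximate, because some probes that were not detected had higher signals than the lowest detected one. Of the 105 probes, 103 matched the member's RefSeq gene by accession and all 105 its chromosome; gene names are those of the array files, and promoter sequences are RefSeq's (GRCm38.p6). Python 3.11.15 and limma 3.58.1 (normexp) were used, and the counting step was tested on simulated data.

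Members and lists were chosen with earlier results of these data known. Named are all Timp genes, members 2-fold apart or with a bound of 2-fold, the brightest 6 of each other family and 3 of each role group, and regulators or substrates that are 2-fold apart or among the brightest 4; further members are named to account for the families, and were chosen after their values were seen. Alternatives are in the closing section. The number of arrays limits the precision.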

Additional observations from a re-analysis of the deposited data

Results flagged for a closer look

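A signal lay in a spot that the comparisons do not use. The spot of the second Mmp28 probe on the array of clone 1 had a processed signal of 146944, a log2 signal of 7.47, and 87 spots on that array were brighter. It carried the flag for uneven brightness and was left out. The same probe had a processed signal of 18.5 in clone 2 (-5.32 on the log2 scale), while the other Mmp28 probe lay at background in both clones (-5.43 in clone 2 and -5.90 in clone 1). The median of negative control spots was 7.13 in clone 2 and 7.96 in clone 1.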

How the results depend on the processing

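No paired analysis was possible because each clone has 1 array, and no replicate could be left out. Among members detected on both arrays, every setting gave 0 that were 2-fold higher in clone 1, and 0 in clone 2 except with the positive and significant flag, which gave 4 (Adam2, Adam25, Adam26a and Adamts17, all dim in clone 1). With that flag 550 of all 18238 measured genes were 2-fold higher in clone 2 and 432 in clone 1. Against that background a count of 4 is not a result about these families. These counts leave out genes detected on 1 array: with spots of uneven brightness kept, the second Mmp28 probe, at -5.32 in clone 2 and 7.47 in clone 1, would be detected in clone 1 alone and far over 2-fold higher there. The count detected on both arrays was 42 with flagged spots kept (61.2% of all genes) and 63 with the less strict flag (79.8%). When spots beside a 2-fold neighbour were left out, it was 30 of 61 members with a value, against 60.8% of all genes. The remaining members had no other spot. The median difference was 0.28 with normexp background correction (0.09 over all genes) and lay between 0.01 and 0.11 in the other settings. With that correction 12 of 42 member differences changed sign, among them Mmp3 (-0.03) and Adamts9 (0.23), and 6 did with the mean of all probes, Adam12 (-0.31) and Adamts2 (-0.22) among them; the cause was not tested. Of the family medians, that of Adamts genes (0.29) was 0.10 without spots beside a 2-fold neighbour, 0.11 with the less strict flag and 0.15 with the mean of all probes. Without those spots the Timp median was -0.10 and the Adam median -0.08. Averaging the probes of a gene put the Adam median at -0.07. With the percentile taken over detected probes it was -0.02, and the Mmp median -0.06. With normexp the medians were 0.22 for Mmp, 0.31 for Timp and 0.35 for Adam genes. Without the spot beside a 2-fold neighbour, Timp2 was read by its bridging probe (-0.03). Mmp9 kept 0.62 to 0.72, Mmp25 0.65 to 0.81, Adamts7 0.63 to 0.74 and Mmp2 -0.88 to -0.80 in all settings that gave a value. Signal over background limits the dimmest genes most: the SD of a difference between spots was 0.17 log2 at signals under -2 and 0.10 above.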
